A study of Mus musculus with 8 samples.

Results

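Muscle of Old mice was compared with muscle of Young mice by single-nucleus RNA sequencing, in which RNA is counted nucleus by nucleus from frozen tissue. The tissue was gastrocnemius, the large calf muscle, of wild-type C57BL/6 mice aged 20 months (Old) or 3 months (Young), with no transgene or treatment in either group. Each group had 2 samples, 1 made with 10x Genomics droplets and 1 made with the droplet system of BGI (the second set). The labels give neither the number of mice per sample nor which mice were shared, so every p-value here measures only the spread between these samples, which may be technical. Old and Young were 4 of the 8 samples of the series. The others were Running and Sedentary mice, which entered the fit only to share its estimate of the spread. The genes described were the 6494, of 21207 symbols named in all 8 tables, with at least 100 UMIs in each of the 4 Old and Young samples, mitochondrial and ribosomal protein genes aside. A UMI is a molecular tag that lets each captured RNA be counted once.

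After the filters on nuclei, the 10x set held 11686 Old and 11795 Young nuclei with 39208124 and 39709777 UMIs. The second set held 4772 Old and 4510 Young nuclei with 5091477 and 9088163 UMIs. The Old sample of the second set was the shallowest, with a median of 941 UMIs per nucleus, and it held the smallest count of the 4 samples in 5226 of the 6494 genes. Of 10x barcodes, 34 occurred in both the Old and the Young sample, while barcodes of the second set are running numbers and cannot be compared. The muscle label held, since the 8 myonuclear markers (among them Ttn, Neb and Ckm) were detected in all 4 samples. Their summed level was 63110 CPM in Old and 77870 in Young in the 10x set, and 25330 and 67350 in the second set. CPM is a UMI count scaled to a common library total, which was adjusted by TMM, a trimmed mean of gene ratios. Sex-linked RNA differed between the sets. Xist, the RNA of the inactive X chromosome, was found in 82.7% of Old and 87.2% of Young 10x nuclei, and Y-linked RNA in 0.342% and 0.212%. In the second set Xist was in 18.1% of Old and 48.0% of Young nuclei and Y-linked RNA in 11.2% and 12.02%. The labels do not give the sexes, and the part of sex in the values below was not tested.

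Gastrocnemius is mostly made of fast fibres, which contract quickly, use glycolysis and carry the IIb myosin heavy chain Myh4. Their nuclei also transcribe the machinery that couples the nerve impulse to calcium release, made up of voltage sensors in the transverse tubules, junctophilins that hold the membranes together and the ryanodine receptor of the sarcoplasmic reticulum. Slow and IIa fibres use Myh7 and Myh2 and rely more on mitochondria. In ageing muscle, fast fibres are known to shrink more than slow ones.

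No gene passed the test between Old and Young. In edgeR's quasi-likelihood test 0 of 20324 genes (0%) had an adjusted p under 0.05, the smallest adjusted p was 0.693, and 557 genes had an unadjusted p under 0.05. DESeq2 called 0 genes as well, with 1174 at an unadjusted p under 0.05. Of the 6494 genes described, 299 had an unadjusted p under 0.05 and 243 of those were lower in Old. With only the 4 Old and Young samples in the fit, 4 genes were called, and without 1 or the other Sedentary sample 8 and 4. Igkc, an antibody light chain, Gm38505, and Nnat and Tmem45b, read mostly from adipocyte-like nuclei of the 10x set, were called in each of these fits, all higher in Old. None of the called genes was among the 6494. Igkc had 3610 UMIs in Old and 216 in Young in the 10x set, and 43 and 1 in the second set. For a single gene, the smallest two-sided p that an exact permutation of the 4 samples allows is 0.333 when the library set is ignored. Permuting only within each library set allows fewer arrangements and so no smaller p. Everything below is therefore described by the values of the 4 samples and by whether the Old value lay on the same side of the Young value in both library sets, each of which has 1 sample a group and so no test of its own.

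Most fast fibre genes were lower in Old muscle in both library sets, and a group of mostly very long genes was higher. At least 2-fold lower in both sets were 92 genes (1.42% of those described), and at least 2-fold higher were 69 (1.06%). By sign alone, 3314 genes (51%) were lower in both sets, 814 (12.5%) were higher in both, and 2366 differed in opposite directions. The median difference on the log2 CPM scale was -0.11 with 10x and -0.67 in the second set, so a gene that was slightly lower in the second set was above the middle of the genes described. With samples scaled by total UMIs, these medians were 0.11 and -0.06, and 17 genes were at least 2-fold lower and 136 higher. By sign, 1406 genes were then lower in both sets and 2030 higher. The excess of lower genes thus depended on the scaling. Centring each set on its own median of the genes described gave 19 genes at least 2-fold lower and 114 higher. By sign it gave 1759 lower and 1759 higher. All 92 lower genes stayed lower in both sets under either scaling, and all 69 higher genes stayed past 2-fold. In the 10x set alone 196 genes were at least 2-fold lower and 168 higher.

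**Figure D1:**
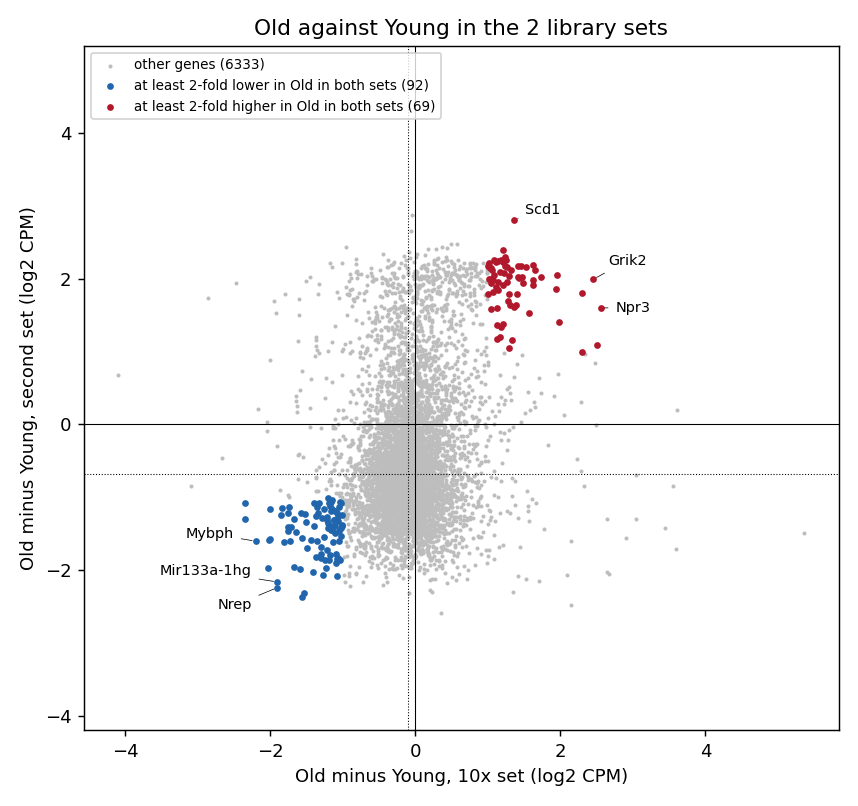
Each point is 1 of 6494 genes, with its Old minus Young difference in log2 CPM in the 10x set on the horizontal axis and in the second set on the vertical axis, from 1 sample against 1 in each. Dotted lines mark the medians (-0.11 and -0.67). Blue points are the 92 genes at least 2-fold lower in Old in both sets and red points the 69 at least 2-fold higher.

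Myofibre genes took most places among the 12 genes ranked lowest in both sets. Pvalb encodes parvalbumin, a calcium buffer of fast fibres (GRCm38 chromosome 15, 78191114 to 78206400). It was at 284 CPM in Old and 995 in Young in the 10x set, and at 853 and 2611 in the second set. The Old sample was thus lower in each set, by 1.81 (95% counting interval 1.78 to 1.84) and by 1.61 (1.57 to 1.66) on the log2 scale. Such intervals cover counting error only. With both sets in the edgeR fit, Pvalb differed by -1.73 on the log2 scale (SE 0.49, adjusted p = 0.693).

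Mir133a-1hg, the host transcript of a muscle microRNA, was at 384 CPM in Old and 1437 in Young in the 10x set, and at 59.0 and 265 in the second set. Myhas, an antisense transcript at the fast myosin gene cluster, was at 181 and 727 CPM and at 135 and 401. Jph1, junctophilin 1, which ties the transverse tubule to the sarcoplasmic reticulum, was at 963 and 2838 CPM and at 423 and 1250. In each of these genes the Old value was below the Young value of its set. Dhrs7c, an enzyme of the sarcoplasmic reticulum, was at 35.5 CPM in Old and 144 in Young with 10x and at 23.6 and 71.5 in the second set. Ky, a Z-disc protease needed for muscle growth, was at 322 and 971 CPM and at 114 and 453. Mybph, a myosin binding protein, had differences of -2.20 with 10x and -1.60 in the second, Ddit4l, an inhibitor of mTOR signalling, -1.73 and -1.60, and the noncoding Plet1os -1.67 and -1.96.

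Of the 12, the others were Nrep, a gene first studied in regenerating nerve, and the haemoglobin genes Hba-a2 and Hbb-bs. Nrep was at 13.4 CPM in Old and 50.5 in Young in the 10x set, and at 16.1 and 76.6 in the second set. Hbb-bs was at 14.7 and 43.4 CPM and at 55.5 and 286. These were among the genes with the smallest unadjusted p (8.7e-04 for Nrep and 8.6e-04 for Hbb-bs, edgeR, adjusted p = 0.693 for both). The summed red blood cell markers were at 73.0 CPM in Old and 130 in Young with 10x and at 149 and 648 in the second set, and a cluster of 19 red-blood-cell-like nuclei was found in the Young 10x sample and not in Old. The part of blood in these values was not tested.

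**Figure D2:**
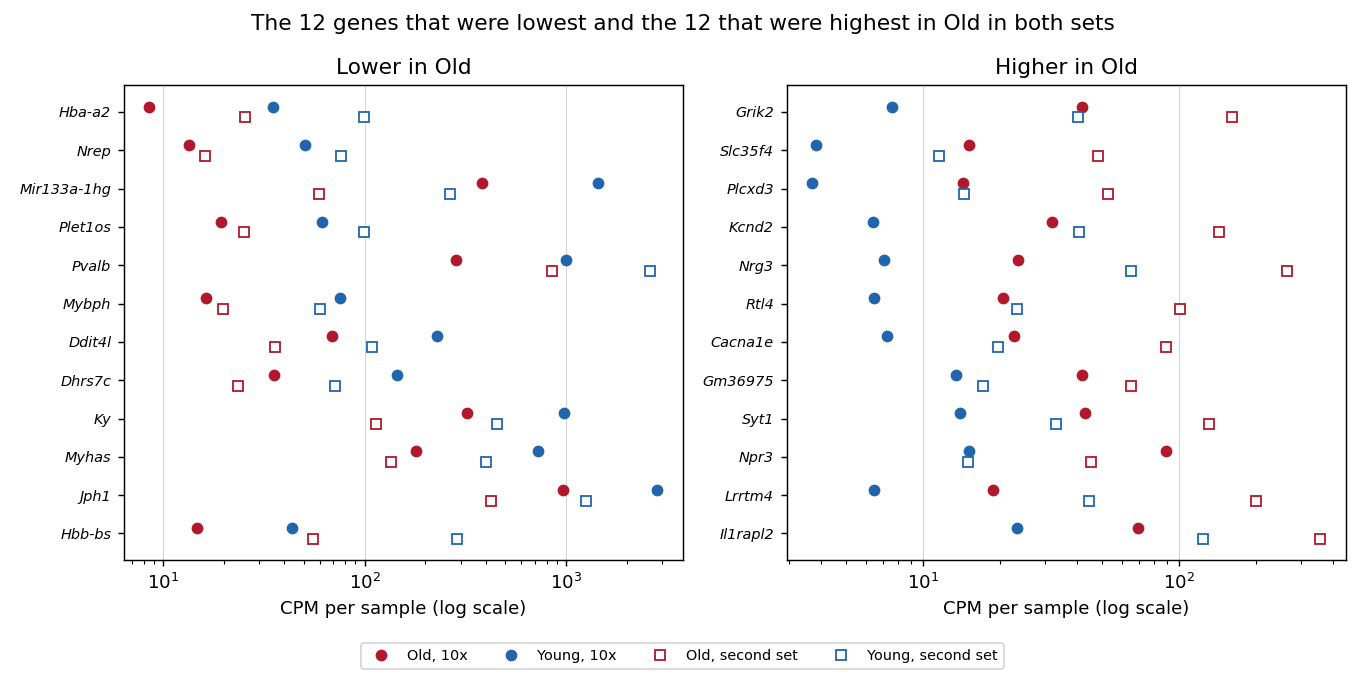
CPM of the 12 genes ranked lowest (left) and the 12 ranked highest (right) in Old in both sets, on a log axis. Filled circles are the 10x samples, open squares the second set, red Old and blue Young; within each set every Old point lies below the Young point on the left and above it on the right.

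The lower genes were not all equally firm. Of the 92, 86 stayed at least 2-fold lower in both sets after the median difference of genes of like length was subtracted. Only 16 did so under total UMI scaling, centring and the length correction alike. Those 16, named here after their values were seen, included the fast regulatory light chain Mylpf, the respiratory subunit Cox8b, Ky, Nrep, Plet1os, Mir133a-1hg, 3 haemoglobin genes, Mlf1, Gdap1, Itgb6 and Sec14l5. Mylpf was at 289 CPM in Old and 749 in Young with 10x and at 495 and 1746 in the second. Mlf1 was at 170 and 410 CPM and at 86.0 and 361.

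Fast fibre contractile genes were lower in Old as a list. Of 17 members, 13 were lower in both sets (51% of all genes were) and 0 higher in both (12.5%). Of them 6 were at least 2-fold lower in both, and the list's median difference was -0.69 with 10x and -1.68 in the second. The list's median length was 16.7 kb. All genes described of 13.2 to 22.8 kb had medians of -0.06 and -1.04. Under total UMI scaling 12 were lower in both, where 1406 of all 6494 genes (21.7%) were. Actn3, the fast-fibre alpha-actinin of the Z-disc, was at 310 CPM in Old and 971 in Young with 10x and at 409 and 1144 in the second set. The essential light chain Myl1 was at 1183 and 2759 CPM and at 1267 and 3137. Myh4 itself was at 2675 and 6193 CPM and at 3991 and 13250. The myosins of the other fast fibre types did not follow. Myh1 (IIx) was at 331 CPM in Old and 313 in Young in the 10x set but at 1365 and 2441 in the second, and Myh2 (IIa) at 511 and 81.8 but 635 and 2601.

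Genes of calcium release and uptake were lower in both sets in 25 of 25 members measured, against 51% of all genes. Of these, 7 were at least 2-fold lower in both. The list's median difference was -0.69 with 10x and -1.30 in the second. Of the 25, 23 stayed lower in both under total UMI scaling (against 21.7% of all genes). Among voltage sensor subunits, Cacnb1 was at 20.7 CPM in Old and 66.5 in Young in the 10x set, and at 15.0 and 37.0 in the second. Cacna2d1 had differences of -1.11 and -1.20, while the pore subunit Cacna1s differed less in the 10x set (-0.52 and -1.71). Among the junctophilins, Jph2 was at 455 and 1047 CPM and at 148 and 380, beside Jph1 above. Sypl2, a protein of the triad junction, was at 61.0 CPM in Old and 219 in Young with 10x and at 68.2 and 162 in the second. The release channel Ryr1 had differences of -1.15 and -1.45, the calcium store protein Casq1 -1.19 and -1.87, and the uptake pump Atp2a1 -1.17 and -0.83. In the edgeR fit 11 of the 25 had an unadjusted p under 0.05 and none an adjusted one.

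Other parts of the myofibre had 10x medians nearer to that of all genes, of which 51% were lower in both sets. Of 35 sarcomere and Z-disc genes, with medians of -0.35 with 10x and -1.49 in the second set, 22 were lower in both sets and 1, the Z-disc scaffold Pdlim7, was at least 2-fold lower in both (-1.16 and -1.45). Mypn, a Z-disc protein that binds nebulin, was at 859 CPM in Old and 1696 in Young with 10x and at 526 and 1253 in the second set. Ttn, titin itself, was at 34260 and 37530 CPM with 10x and at 7294 and 20460 in the second set. In the dystrophin complex (medians -0.23 and -0.98) 14 of 19 were lower in both sets, among them Dag1, dystroglycan (-0.85 and -1.06), Dtna (-0.70 and -1.41) and Sgcd (-0.85 and -0.60). Of 16 channels and pumps of the sarcolemma (medians -0.20 and -1.12) 12 were lower in both. Kcnj2, an inward rectifier potassium channel, was at 66.5 CPM in Old and 143 in Young with 10x and at 16.3 and 42.8 in the second, and Scn4a, the muscle sodium channel, had differences of -1.06 and -0.68.

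Energy genes of the fast fibre were also on the lower side, beside the 51% of all genes that were lower in both sets. In glycolysis and lactate handling 14 of 21 genes were lower in both sets and 4 were at least 2-fold lower in both. The list had a median of -0.34 with 10x and -1.42 in the second, and a median length of 18.75 kb. All genes described of 13.2 to 22.8 kb had medians of -0.06 and -1.04. Ldha, which turns pyruvate into lactate, was at 118 CPM in Old and 241 in Young with 10x and at 192 and 511 in the second set. The edgeR fit over both sets put Ldha at -1.18 on the log2 scale (SE 0.47, adjusted p = 0.693). The other 3 of the 4 were Pgk1 (-1.20 and -1.42), Gapdh (-1.08 and -2.08) and Eno3 (-1.02 and -1.53), which act late in glycolysis.

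Of 15 glycogen genes 12 were lower in both sets, against 51% of all genes. Ppp1r3c, which targets a phosphatase to glycogen, was at 14.5 CPM in Old and 74.3 in Young with 10x and at 52.6 and 111 in the second set, and the phosphorylase Pygm at 827 and 1578 and at 198 and 540. Of 7 creatine kinase and purine cycle genes 5 were lower in both, where 51% of all genes were. Ampd1, the AMP deaminase of fast muscle, was at 676 and 2291 CPM and at 437 and 1203, and Ckm, muscle creatine kinase, at 505 and 1055 and at 2738 and 6524.

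Respiratory chain genes encoded in the nucleus were lower in both sets in 61 of 71, against 51% of all genes. Their median was -0.28 with 10x and -1.49 in the second. These were short genes, with a median length of 7.57 kb against 54.6 kb for all genes described. All genes described of up to 13.1 kb had medians of -0.01 with 10x and -1.22 in the second. Under total UMI scaling 29 of the 71 were lower in both, against 21.7% of all genes. Cox8b was at 25.2 CPM in Old and 71.2 in Young with 10x and at 87.2 and 282 in the second, and it was the only one at least 2-fold lower in both. Ndufa12 had differences of -0.86 and -1.16. The 29 fatty acid oxidation genes differed between sets, with a median of 0.11 with 10x and -1.25 in the second and 10 lower in both.

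Some regulators of fast fibre identity were among the lower genes. Maf, a transcription factor of IIb fibres, was at 550 CPM in Old and 1862 in Young with 10x and at 209 and 483 in the second set. Sox6, a repressor of slow fibre genes, was at 2905 and 7265 CPM and at 950 and 2006. Both were at least 2-fold lower in both sets, and 10 of the 13 fibre-type transcription factors were lower in both, including Eya1 (-1.05 and -0.95) and Tbx15 (-0.94 and -1.07). Mef2c, which drives many muscle promoters, was at 2433 and 5010 CPM and at 963 and 3484. Of 20 AMPK and PGC-1 regulators 11 were lower in both, a share near the 51% of all genes, among them the kinase subunit Prkaa2 (-0.73 and -1.52) and Ppargc1b (-0.84 and -1.16). In insulin, IGF1 and mTOR signalling 15 of 22 were lower in both. Irs1, the insulin receptor substrate, was at 399 CPM in Old and 1447 in Young with 10x and at 97.7 and 183 in the second.

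The genes named by the study were lower too, though they were chosen on these samples and so are not independent evidence of direction. All 8 proteostasis genes and 7 of 8 DNA repair genes were lower in both sets, with medians of -0.55 and -1.34 and of -0.52 and -1.01. None reached 2-fold in both sets. Fbxl17, an F-box protein, was at 1119 CPM in Old and 1866 in Young with 10x and at 346 and 753 in the second set, and the nuclease gene Exd2 was at 138 and 269 and at 65.9 and 139. Park7, the exception, was at 57.3 and 54.4 CPM and at 67.8 and 186. Apart from these and Eya1, the remaining 12 had differences between -0.79 and -0.18 with 10x and between -1.56 and -0.59 in the second set. A list of 28 DNA damage sensing and repair genes not picked by the study had 8 lower and 4 higher in both, with medians of 0.05 and -0.54. In it Xrcc5 of the end-joining complex was lower (-0.88 and -0.83) and Fancc higher (0.69 and 0.61). Of 29 proteasome genes 21 were lower in both (medians -0.09 and -1.07), of 33 autophagy genes 14 (0.03 and -0.96), and of 13 lactylation writers and erasers 9 (-0.02 and -0.96), with Ep300 at -0.37 and -0.48. The medians of all genes described were -0.11 and -0.67, and 51% of them were lower and 12.5% higher in both. Proteasome genes had a median length of 18.5 kb, and all genes described of 13.2 to 22.8 kb had medians of -0.06 and -1.04.

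**Figure D3:**
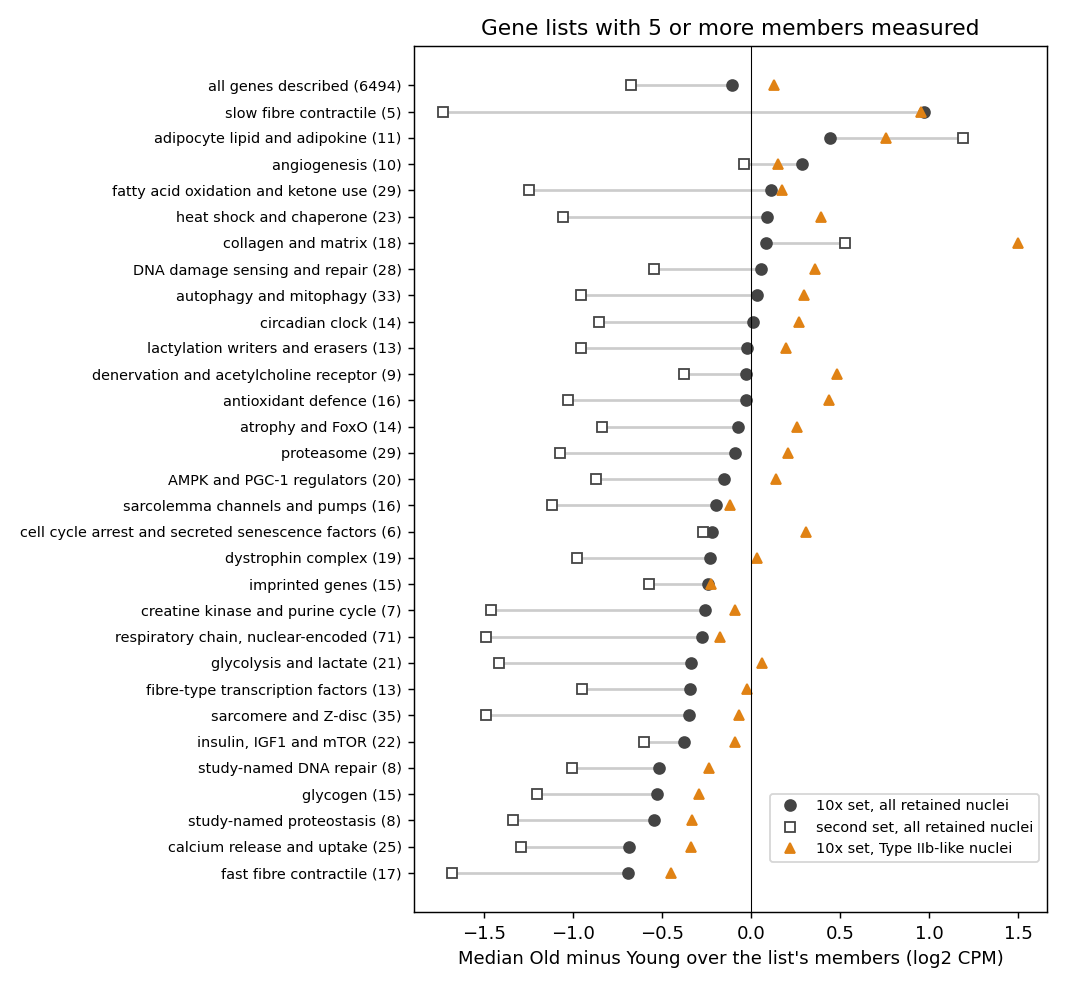
Median Old minus Young difference in log2 CPM over the measured members of each list (number in brackets) in the 10x set (circles), the second set (open squares) and the Type IIb-like nuclei of the 10x set (triangles), with all genes described in the top line. The fast fibre and calcium lists are lowest in the 10x set, and slow fibre genes are far apart between the sets. Triangles are scaled without TMM, unlike the other symbols.

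Summed counts cannot tell fewer nuclei of a type from less RNA per nucleus, so the 10x set was also read by cluster. Clusters rich in myonuclear markers held 48.3% of Old and 64.3% of Young nuclei and 60.4% and 68.3% of UMIs. Type IIb-like nuclei by their markers numbered 1912 in Old and 5670 in Young, but different clusters made them up: 1493 of the Old ones were in cluster 4 (led by Ostn), and 2926 and 2653 of the Young ones were in clusters 0 and 1. Cluster 3, with 1787 Old and 105 Young nuclei, also carried Myh4 but stayed unnamed because Syt1, a neuronal marker, was among its leading genes. Cluster 11 (82 and 629 nuclei), led by haemoglobin genes, stayed unnamed as well.

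Within the Type IIb-like nuclei all 92 lower genes were again lower in Old, 45 of them at least 2-fold, with a median of -0.99 against 0.13 over the genes described. These are the same 10x samples that chose the genes, so this is no independent support. Pvalb was at 492 CPM of the class's own UMIs in Old and 1195 in Young, and at 468 in Old cluster 3. Myh4 was at 5090 and 7784, with 4872 in cluster 3, while Ttn was at 54100 and 46220. Jph1 was at 1639 in Old and 3599 in Young, with 1683 in cluster 3, Mir133a-1hg at 602 and 1705, and Ldha at 197 and 285. Of all genes with enough UMIs there, 2237 of 5944 (37.6%) were lower in Old. The calcium list had 21 of 25 genes lower within these nuclei, with a median of -0.34, and the fast fibre list 12 of 17, with a median of -0.45. In the glycolysis list 9 of 20 were lower there, and its median of 0.06 was near the 0.13 of all genes. Myonuclear markers also made up 17030 CPM of the other Old clusters and 12820 of the Young ones. Of the 92 genes 88 were lower in those other clusters too, by a median of -0.40, and the part of free RNA in these values was not tested.

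**Figure D4:**
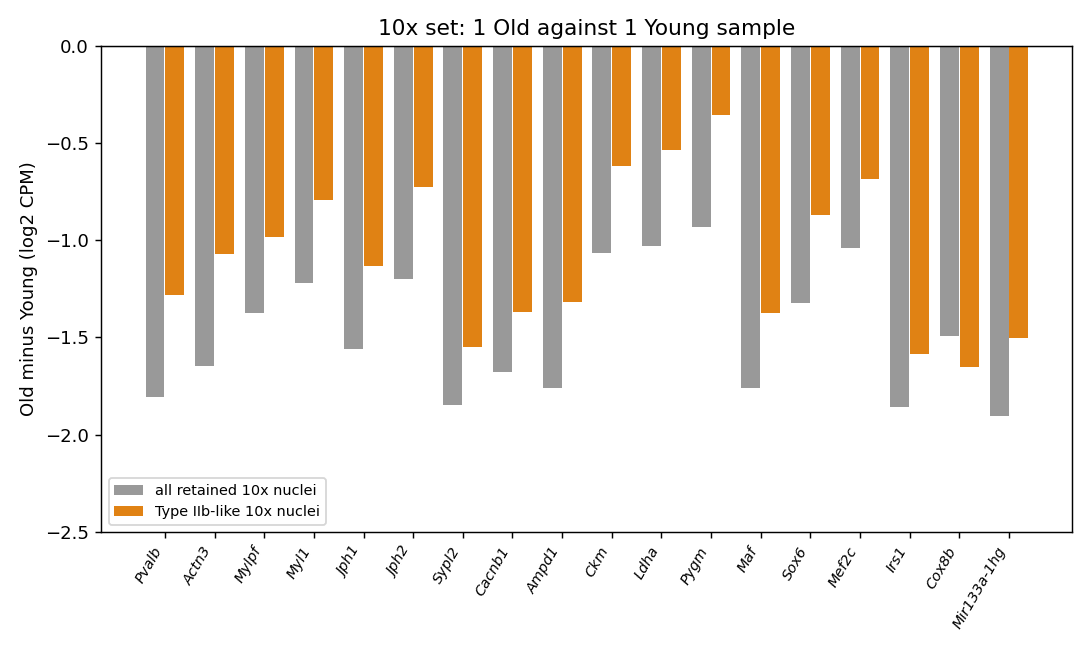
Old minus Young difference in log2 CPM of 18 named myofibre genes in the 10x set over all retained nuclei (grey) and over Type IIb-like nuclei (orange), 1 Old against 1 Young sample. The bars are below 0 for every gene shown, and those of the Type IIb-like nuclei are the shorter ones for all but Cox8b. Grey values are scaled by TMM and orange ones by the class's own UMIs without TMM, so part of the gap in length is scaling. The medians of all genes described were -0.11 (grey scale) and 0.13 (orange scale).

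Slow fibre genes went opposite ways in the 2 sets. Myh7, the slow myosin, had 4961 UMIs in Old and 46 in Young in the 10x set, and 1402 and 7763 in the second set. Tnnt1, slow troponin T, had 1407 and 31 UMIs and 1747 and 7491. The 10x set held 149 slow-like nuclei in Old and 1 in Young, whereas the second set held 93 and 485. In the second set 84.9% of Old and 49.4% of Young nuclei stayed unnamed, so its class counts are not directly comparable. Type IIb-like nuclei there numbered 307 in Old and 1433 in Young. Only 5 of the 12 slow fibre genes had 100 UMIs in every sample, and all 5 were higher in Old with 10x and lower in the second (medians 0.97 and -1.73). The part of these slow nuclei in the other fibre genes was not tested.

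The genes that were higher in Old were long. Of the 69, 62 were over 100 kb, or 92.5% of those with a length, against 29.9% of all genes described and 14.3% of the 92 lower ones, and their median length was 438 kb against 54.6 kb. Grik2, a glutamate receptor subunit (GRCm38 chromosome 10, 49094833 to 49788766), was at 42.0 CPM in Old and 7.595 in Young with 10x and at 162 and 40.5 in the second set. The differences were 2.45 (95% counting interval 2.28 to 2.66) and 1.995 (1.82 to 2.17), and the fitted one 2.16 (SE 0.77, edgeR adjusted p = 0.693). Kcnd2, a potassium channel, was at 32.0 and 6.41 CPM and at 144 and 41.0. Syt1, a synaptic vesicle protein, was at 43.2 and 14.01 CPM and at 132 and 33.2.

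The other 9 of the 12 ranked highest were Slc35f4, Plcxd3, Nrg3, Rtl4, Cacna1e, Gm36975, Npr3, Lrrtm4 and Il1rapl2, with differences between 1.53 and 2.56 with 10x and between 1.52 and 2.18 in the second set. All 12 Old values were above the Young value of the same set. Some of these genes drew much of their Old 10x signal from few nuclei, as given below. Of the 12, Npr3 had the higher level in the 10x set, and the other genes in the second set, such as Il1rapl2, at 69.6 CPM in Old and 23.4 in Young with 10x and at 357 and 124 in the second set. Dach2, a long gene for a transcriptional co-regulator, was at 25.0 and 9.82 CPM and at 147 and 65.4.

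In the second set the difference between Old and Young grew with gene length. Genes were split by length into 10 bins of 643 or 644 genes. The median second-set difference was -1.22 in the shortest bin (up to 13.1 kb), -0.63 in the fifth, 0.20 in the ninth and 1.47 in the longest (over 267 kb). In the 10x set the medians of the bins lay between -0.18 and -0.01, and both the shortest and the longest bin were at -0.01. Of the 69 higher genes 47 were in the longest bin, and of the 92 lower ones 23 were in each of the shortest 2. After the length correction 24 of the 69 stayed past 2-fold in both sets. Genes over 300 kb gave 15.2% of the UMIs in Old and 17.6% in Young in the 10x set, but 18.2% and 12.8% in the second set. In the second set 2399 of the 4772 Old nuclei, and 64 of the 4510 Young, fell in a single cluster led by genes with a median length of 1102 kb.

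**Figure D5:**
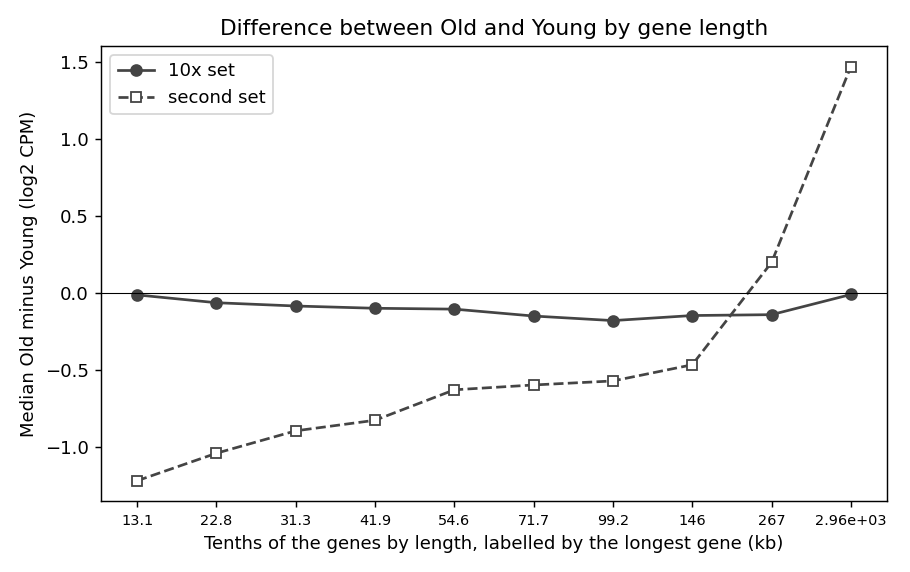
Median Old minus Young difference in log2 CPM (vertical axis) of genes split into 10 bins by gene length, each labelled by its longest gene in kb, in the 10x set (circles) and the second set (open squares). The second set runs from -1.22 to 1.47 and the 10x set stays between -0.18 and -0.01.

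Much of the 10x signal of the long genes came from few nuclei. Cluster 30 held 18 Old and 2 Young nuclei, was led by Nrg1, Kcnip4 and Sgcz and stayed unnamed. It gave over 20% of the Old 10x UMIs of 24 of the 69 genes, such as 57.9% for Nrg1, a growth factor, and 58.9% for Grm5, a glutamate receptor. Cluster 27, with 62 Old and 0 Young nuclei and led by Itprid1, Csn3 and Fcgbp, gave 43.1% of the UMIs of Prlr, the prolactin receptor. Without these 2 clusters 38 of the 69 genes stayed past 2-fold. Grik2 came mostly from elsewhere, with 57.6% of its Old 10x UMIs in fibro-adipogenic-progenitor-like nuclei (the stromal cells that make matrix and fat). It had 13.9% in cluster 30 and 4.45% in myonuclear clusters. Syt1 had 62.6% of its UMIs in myonuclear clusters and 15.85% in cluster 30. It stood at 105 CPM in Old cluster 3, which it leads, and at 2809 in Old cluster 30. In Type IIb-like nuclei it was at 17.6 CPM in Old and 12.8 in Young, and over the named clusters its 10x difference was 0.37 in place of 1.62. Both values leave out cluster 3, which stayed unnamed because of Syt1, so they are low in part by that choice. The 6 neuron markers summed to 115 CPM in Old and 72.6 in Young with 10x and 277 and 69.8 in the second, and Snap25, a defining one, had 84 and 30 UMIs and 133 and 33, with 69.0% of the Old 10x UMIs in cluster 30.

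Only 5 of the 69 with a length were under 100 kb, and they were Efemp1, Gm35188, Npr3, Pmepa1 and Scd1. Scd1, which makes monounsaturated fatty acids, was at 63.0 CPM in Old and 24.4 in Young with 10x and at 135 and 19.04 in the second set. Npr3, the clearance receptor of natriuretic peptides, was at 89.6 and 15.1 CPM and at 45.6 and 15.0. In Old 10x nuclei 73.4% of Scd1 and 86.8% of Npr3 UMIs were in adipocyte-like nuclei. These nuclei numbered 362 in Old and 220 in Young in that set and 252 and 5 in the second set. In the second set 84.9% of Old and 49.4% of Young nuclei stayed unnamed. Of 11 adipocyte lipid and adipokine genes measured 3 were higher in both sets and 1 lower, with medians of 0.44 and 1.19. Of all genes described, 12.5% were higher and 51% lower in both. The fatty acid carrier Fabp4 (1.70 and 0.64) and the lipase Lipe (0.54 and 1.28) were higher, and Lpin1, which is also used by muscle, was lower (-1.19 and -0.77).

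Of 18 collagen and matrix genes 9 were higher in both sets and none lower in both, with medians of 0.08 and 0.53. Of all genes described, 12.5% were higher in both. The basement membrane linker Nid1 was at 155 CPM in Old and 103 in Young with 10x and at 27.7 and 18.7 in the second set. Fbn1, fibrillin, had differences of 0.34 and 1.09. Fibro-adipogenic-progenitor-like nuclei made up 28.1% of Old and 17.6% of Young 10x nuclei. They held 75.8% of the Old 10x UMIs of Nid1 and 82.6% of those of Fbn1. Within these nuclei Nid1 differed by 0.38 and Fbn1 by 0.20. The part of nuclei numbers in the matrix genes was not tested. The complement component C3 was at 161 and 48.6 CPM in the 10x set but at 17.2 and 12.8 in the second. Fkbp5, a target of glucocorticoids, was at 122 and 64.5 CPM and at 96.1 and 79.1. Of 14 atrophy and FoxO genes 7 were lower and 1 higher in both (medians -0.07 and -0.84). Of 6 cell cycle arrest and secreted senescence factors 4 were lower and 1 higher in both. Over all genes described 51% were lower and 12.5% higher in both, so these small lists show little beyond that. Serpine2 was at 106 CPM in Old and 237 in Young with 10x and at 47.6 and 129 in the second.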

How the data were processed

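The tables that the authors deposited hold UMI counts, not normalized, for each gene in each nucleus. Per the labels, processing named mm10, Cell Ranger 6.1.2 and Seurat 4.1.1. Nuclei with over 200 and under 6000 genes and under 6% mitochondrial UMIs were kept, doublets included (the study states no removal, and no caller was run). Counts were summed per sample. The 21207 symbols in all 8 tables were used. GENCODE vM21 (GRCm38) gave a position for 20749. The quasi-likelihood test of edgeR 4.0.16 (R 4.3.3), with TMM scaling, filterByExpr and Benjamini-Hochberg adjustment at 0.05, fitted 4 groups and the library set to 8 samples, with 3 residual degrees of freedom. Replicate numbers stand for the library set, which is the pairing. Within a set, differences are of log2 CPM (prior count 2). Class values use the class's own UMIs, without TMM. Intervals are 95% exact binomial. Nuclei were clustered per set with scanpy 1.11.5 and leidenalg 0.10.2, and limits for naming clusters were set after seeing them. The fit was tested on simulated data.

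The genes described and the lists were chosen with earlier results of these data known. Named genes were the 12 lower and 12 higher with the largest smaller difference of the 2 sets, up to 4 per list by the same rank, Ldha and 16 study-named genes, the 3 with the smallest p and marker genes. Apart from Fkbp5, list members under 0.3 in either set were not named, a limit set after their values were seen. Outside this rule, and chosen after their values were seen, were Nnat, Tmem45b, Gm38505, Mlf1, Gdap1, Itgb6, Sec14l5, Cacna2d1, Cacna1s, Casq1, Atp2a1, Nrg1, Grm5, Prlr, Efemp1, Gm35188, Pmepa1, Ostn and genes that lead clusters. Of genes near the limit of 100 UMIs, 364 had a smallest count of 100 to 109 (median differences 0.02 with 10x and -0.48 in the second) and 444 had 90 to 99 (-0.01 and -0.36). Alternatives were other scalings, filters, tools (DESeq2 1.42.0), thinning, a length correction and each sample left out.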

Additional observations from a re-analysis of the deposited data

Results flagged for a closer look

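With 2 samples a group, no sample could be tested as an outlier. Differences between Old and Young of opposite sign in the 2 library sets were noted for slow fibre genes, and the difference between sets was not tested. The slow fibre list had a median of 0.97 with 10x and -1.73 in the second set. Myh7 differed by 6.46 with 10x and by -2.23 in the second, and Myh2 by 2.64 and -2.03.

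Mitochondrial transcripts, which were left out of the gene comparison, made up 0.415% of UMIs in Old and 0.138% in Young in the 10x set but 0.492% and 0.912% in the second set, again in opposite directions and not tested.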

How the results depend on the processing

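The count of genes called by edgeR was 0 with every setting but 3: with only the 4 Old and Young samples it was 4, and leaving out each replicate in turn gave 0 to 8, with 8 without Sedentary replicate 1 and 4 without Sedentary replicate 2. Fitting no replicate block (no library set term) gave 0. Genes at least 2-fold lower and higher in both sets numbered 92 and 69. They numbered 17 and 136 under total UMIs, 60 and 85 after thinning, 113 and 27 with the length correction, 113 and 140 with a minimum of 50 UMIs, 56 and 11 with a minimum of 300, and 421 and 191 at a fold limit of 1.5. Alternatives chosen after seeing the data gave 19 and 114 with centring, 94 and 146 in myonuclear 10x clusters, 92 and 38 without clusters 27 and 30, 132 and 88 in named 10x clusters, 196 and 168 in the 10x set alone and 1893 and 675 in the second set alone. Other scaling by RLE, all deposited nuclei, all genes kept and a prior count of 0.5 left both counts within 1.5 times. Of 2322 refits of 129 named genes, 6 changed sign. Under total UMIs Cblb was at 0.044. Leaving out 1 sample in turn, Lrrtm4 ranged from -0.067 (without Old replicate 2) to 3.51, Cd55 from -1.48 to 0.059 (without Old replicate 2), Park7 from -1.54 to 0.076 (without Old replicate 2), Nr4a1 from -1.7 to 0.15 (without Young replicate 1) and Tnxb from -0.32 (without Old replicate 1) to 1.20. No refit brought any of the 129 genes past the threshold. Igkc, Nnat, Tmem45b and Gm38505, which are not among the 129, were called in each of the 3 settings above. List medians averaged over sets changed sign in 18 of 264 recalculations, 7 of them in the 10x set alone and 6 under total UMIs. The causes of these changes were not tested, beyond the fewer genes or samples that a setting leaves. The shallowest sample, Old of the second set, limited which genes could be described.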

Other observations

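Meg3, the noncoding RNA of an imprinted cluster, was at 217 CPM in Old and 488 in Young with 10x and at 42.9 and 89.98 in the second set. Of its 10x UMIs, 3.36% in Old and 16.4% in Young were in myonuclear clusters. There the log2 ratio of CPM was -3.07, but cluster 29, with 32 Young and 0 Old nuclei and Meg3 among its leading genes, held 64.7% of the Young UMIs, and without it the ratio was -1.57. Of 15 imprinted genes measured 9 were lower and 1 higher in both sets, against 51% and 12.5% of all genes described.

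Ostn, which encodes the muscle-secreted peptide osteocrin, went opposite ways: 282 CPM in Old and 34.3 in Young in the 10x set, and 49.7 and 123 in the second set. It was named after its values were seen.

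Of the 92 genes at least 2-fold lower in both sets 16 were not protein coding, as were 5 of the 69 at least 2-fold higher and 254 of all 6494 genes described.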
